A study of Mus musculus with 8 samples.

Results

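Cadherins and protocadherins are calcium-dependent adhesion proteins of the cell surface, and 93 of the 20692 mouse genes measured here carry a symbol of the form Cdh followed by a digit or a symbol beginning with Pcdh. They are 23 cadherins, 12 protocadherins that stand alone in the genome and 58 protocadherins of the Pcdha, Pcdhb and Pcdhg clusters on chromosome 18. The rule that picks them reads symbols and no measured value, and it was applied after 127 RefSeq transcript targets had been joined to them.

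Classical cadherins bind the same kind of cadherin on a neighbouring cell and link it through catenins to actin, and in the brain they take part in synapse formation and in the sorting of neurons. Non-clustered protocadherins of the delta group bind weakly and signal through their cytoplasmic tails. Clustered protocadherins are switched on in different combinations in single neurons, and these combinations let the branches of a neuron tell themselves from those of its neighbours. In the Pcdha and Pcdhg clusters each gene has a first exon of its own joined to constant exons that all genes of the cluster share, while Pcdhb genes are single exons of similar sequence.

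RNA was measured in 8 libraries from unchallenged male mice, each from about 1000 td-Tomato-positive cells that were sorted from punches of the central amygdala of 1 mouse. The 4 PKCd libraries came from PKC delta-type::Cre mice crossed to Rosa::loxP-STOP-loxP-td-Tomato, aged 9 weeks (replicates 1 and 2) or 18 weeks (3 and 4). The 4 SST libraries came from SST::Cre mice crossed to the same reporter, aged 8 weeks (1 and 2) or 20 weeks (3 and 4). All mice carried Cre and the reporter, and a cell is labelled by Cre activity under the Prkcd or the Sst promoter, now or earlier in its life. The series compares these 2 labelled populations.

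Totals were 10316149 to 18242496 estimated counts in the 4 libraries of 8 to 9 weeks and 964361 to 2522749 in the 4 of 18 to 20 weeks, so age class and depth run together. Prkcd was 106.5 to 225.7 TPM (a share of all transcripts in a library, scaled to transcript length) in PKCd libraries and 0 to 30.2 TPM in SST libraries. Sst was 116.3 to 296.2 TPM in SST libraries and 0.209 to 13.7 TPM in PKCd replicates 1, 3 and 4, but 222.7 TPM in PKCd replicate 2. Although the labels name neurons, 11 neuronal markers summed to 143.6 to 866.1 TPM, whereas 10 oligodendrocyte markers summed to 11999 to 61769 TPM over the 8 libraries. The 12 microglial markers summed to 33158 to 56970 TPM in PKCd and 506.3 to 7185 TPM in SST libraries. Fewer cells of a type and less RNA per cell cannot be told apart in such libraries, and this holds for every difference below.

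Of the 93 genes, 79 had at least 1 read in some library and 14 had none: Cdh17, 8 Pcdha genes, 3 Pcdhb genes and 2 Pcdhg genes. 7 genes had reads in all 8 libraries, namely Cdh2, Cdh10, Cdh11, Pcdh7, Pcdh9, Pcdh17 and Pcdh19. 12 genes had reads in 1 library alone. The number of genes with a read was 48, 31, 27 and 38 in PKCd replicates 1 to 4 and 34, 34, 41 and 59 in SST replicates 1 to 4. Thinned to the 964297 reads of the shallowest library, 25.2 to 40.2 genes would be seen in PKCd and 27.3 to 49.4 in SST libraries, so the ranges overlapped with or without the difference in depth. SST replicate 4, a shallow library, showed the most genes either way.

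All members together summed to 158.7 to 399.7 TPM in PKCd libraries and 226.2 to 789.2 TPM in SST libraries. The highest sum was that of SST replicate 2 and the lowest that of PKCd replicate 2. By group, the 13 type II cadherins had the steadiest sums, 61.2 to 79.4 TPM in PKCd and 64.0 to 87.1 TPM in SST libraries. The 4 delta-1 protocadherins ranged from 2.63 to 57.1 TPM in PKCd libraries and from 25.5 to 160.3 TPM in SST libraries.

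The population comparison used edgeR's quasi-likelihood test over all 11328 genes with enough reads in enough libraries, with a term for age class. A call needs an adjusted p (Benjamini-Hochberg) under 0.05. 23 of the 93 genes passed the filter on low reads, and the other 70 were not tested. No member was called: 0 of the 23 were higher in PKCd libraries, where 0.282% of all tested genes were, and 0 were lower, where 0.0% were. At an unadjusted p under 0.05 there were 5 of the 23 members (21.7%), against 6.67% of all genes. DESeq2 called Cdh5 higher and Pcdh11x, Pcdh15 and Pcdhb9 lower, where it called 3.2% of all genes higher and 0.812% lower. Of the 23, 17 had a log2 fold change (PKCd minus SST) below 0 (73.9%, against 52.7% of all tested genes), and their median was -1.05 against -0.08. That median was also -1.05 with Pcdh11x set to the bound given below. It was -0.46 without PKCd replicate 2, -0.50 in the 18 to 20 week libraries alone (22 members), -1.71 in the 8 to 9 week libraries alone (33 members) and, with no filter, -0.26 over 79 members against -0.13 over all genes. Since a gene can pass the filter through the population where it is high, nothing about the whole family is read from these numbers.

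**Figure D1:**
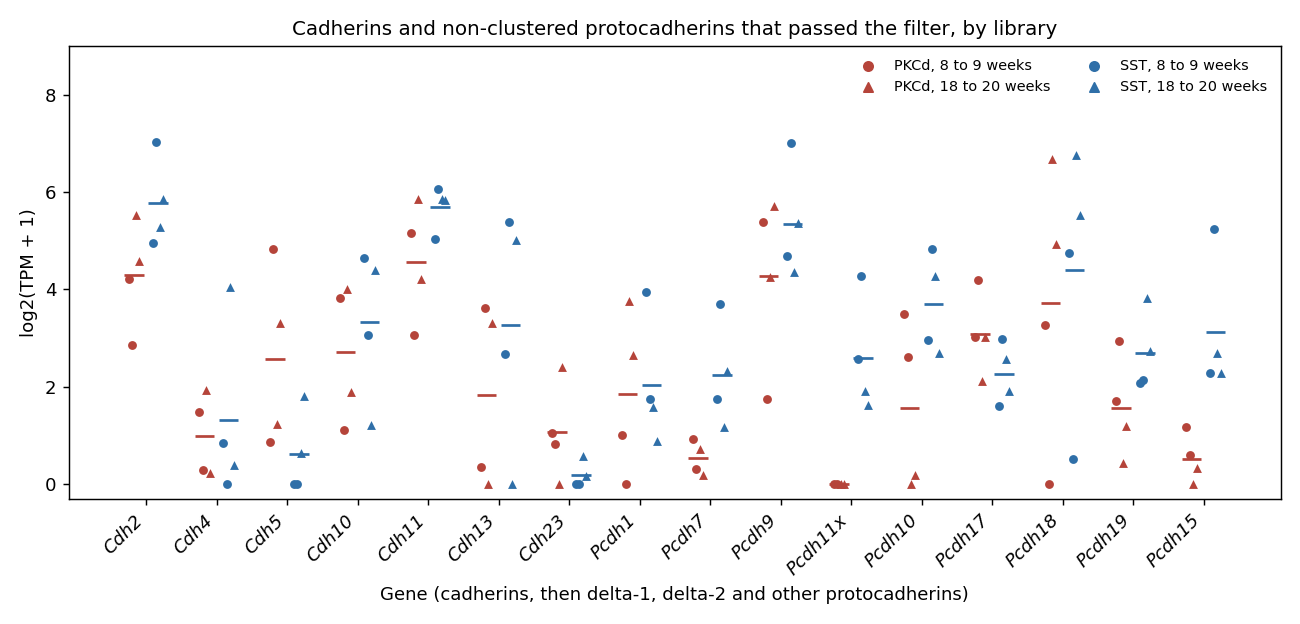
Level of the 16 tested cadherins and non-clustered protocadherins, as log2(TPM + 1), in each library; circles are mice of 8 to 9 weeks, triangles mice of 18 to 20 weeks, and bars the mean of 4 libraries. Pcdh11x, Pcdh15 and Pcdh7 are the genes whose SST libraries all lie above all PKCd libraries, and most other genes overlap widely.

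In the tested set 3 non-clustered protocadherins (13.0% of the 23 tested members) separated the populations, all with higher levels in SST libraries: Pcdh11x, Pcdh15 and Pcdh7. Among all tested genes, 3.05% lay lower in all 4 PKCd libraries than in all 4 SST libraries and 3.88% lay higher; no tested member lay higher. A gene can pass the filter through the population where it is high. Pcdh11x, with 0 reads in every PKCd library, passed through its SST libraries alone. The shares are therefore a description, and nothing about the family is read from them. Cdh16, which had too few reads to be tested, also separated, at 0 to 0.366 TPM in PKCd and 0.858 to 1.77 TPM in SST libraries.

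Pcdh11x (chromosome X, 120290238 to 120910622, GRCm38.p6) encodes a delta-1 protocadherin of the X chromosome. It had 0 reads in each of the 4 PKCd libraries, and 470, 1410, 22 and 28 reads in SST replicates 1 to 4. Its SST levels were 4.97, 18.3, 2.77 and 2.09 TPM, so every SST library was above every PKCd library. The 0 reads allow up to 0.164, 0.291, 3.11 and 1.93 CPM (counts scaled to the library total) in PKCd replicates 1 to 4, while the SST libraries held 32.9, 88.1, 14.1 and 11.1 CPM. With 3 counts over the whole PKCd group as the floor, the pooled rate in SST libraries was at least 581.4-fold higher, or at least 293.1-fold without SST replicate 2. In the 18 to 20 week libraries alone it was at least 10.3-fold higher. These bounds are for pooled counts: they allow for counting error and leave out the spread between mice. Between single libraries the gap can be far smaller, as with 11.1 CPM in SST replicate 4 against up to 3.11 CPM in PKCd replicate 3. The edgeR adjusted p was 0.164, and it was 0.244 to 0.399 when any 1 library was left out. The gene passed in edgeR with no filter on low reads (adjusted p 0.00491), where 0.303% of all genes were called lower, and in DESeq2 (adjusted p 9.90e-07). Of its 4 targets, the one of 8606 bases took 97.4% to 98.9% of the reads in each SST library.

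Pcdh15 (chromosome 10, 73096277 to 74649831) encodes a long protocadherin best known from the tip link of inner ear hair cells, where it pairs with Cdh23. PKCd replicates 1 to 4 held 1.26, 0.514, 0 and 0.250 TPM, and SST replicates 1 to 4 held 3.88, 36.7, 5.46 and 3.87 TPM. SST replicate 2 stood far above the other 3 SST libraries, and the lowest SST library was still above the highest PKCd library. In edgeR this was -4.55 ± 1.28 on the log2 scale (SE; adjusted p 0.296), and -4.06 without SST replicate 2. In SST replicates 1, 3 and 4 a target of 9110 bases took 82.9% to 88% of its reads, whereas in SST replicate 2 a target of 6338 bases took 51.3%. Reads were divided between these overlapping targets by the authors' tool, so these shares are uncertain.

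Pcdh7 (chromosome 5, 57716145 to 58133236), another delta-1 protocadherin, held 0.896, 0.249, 0.639 and 0.145 TPM in PKCd replicates 1 to 4. The SST libraries held 2.37, 12.02, 1.26 and 3.99 TPM. The gap was narrow, from 0.896 TPM in the highest PKCd to 1.26 TPM in the lowest SST library, the latter resting on 9 reads. In edgeR the log2 fold change came to -3.37 ± 1.53 (SE; adjusted p 0.739).

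In the same libraries the markers of oligodendrocyte precursors also had higher sums in SST, these being the dividing glial cells that carry the PDGF receptor alpha. The 8 precursor markers summed to 70.9, 7.54, 36.0 and 7.49 TPM in PKCd replicates 1 to 4 and to 152.2, 1484, 251.8 and 87.0 TPM in SST replicates 1 to 4. All 8 had log2 fold changes below 0, and 0 of 8 were called. Cspg4, C1ql1, Gpr17, Neu4 and Tnr overlapped between the populations. Gpr17 was higher in PKCd replicate 3 than in SST replicates 1, 3 and 4. Pdgfra itself held 0.423 to 4.82 TPM in PKCd and 12.5 to 184.6 TPM in SST libraries (log2 fold change -4.73 ± 0.99 SE, edgeR adjusted p 0.105), and Lhfpl3 and Vcan also did not overlap. Lhfpl3 and C1ql1 were at 0 in PKCd replicates 2, 3 and 4, and C1ql1 was also at 0 in SST replicate 4 and higher in PKCd replicate 1 (21.6 TPM) than in SST replicate 3 (9.09 TPM). SST replicate 2 had the highest value of the 3 protocadherins and of the precursor sum, and also of the oligodendrocyte sum (61769 TPM), Cdh2, Pcdh9 and the Pcdhg sum. Among SST replicates 1, 3 and 4, Pcdh15 ranked as the precursor sum did (3.88, 5.46 and 3.87 TPM). Pcdh7 (2.37, 1.26 and 3.99 TPM) and Pcdh11x (4.97, 2.77 and 2.09 TPM) did not. In PKCd libraries Pcdh7 ranked as the sum did (0.896, 0.249, 0.639 and 0.145 TPM), and Pcdh15 did not (1.26, 0.514, 0 and 0.250 TPM). These orders rest on few libraries and, for Pcdh7, on few reads. The part of these cells in the 3 differences was not tested.

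**Figure D2:**
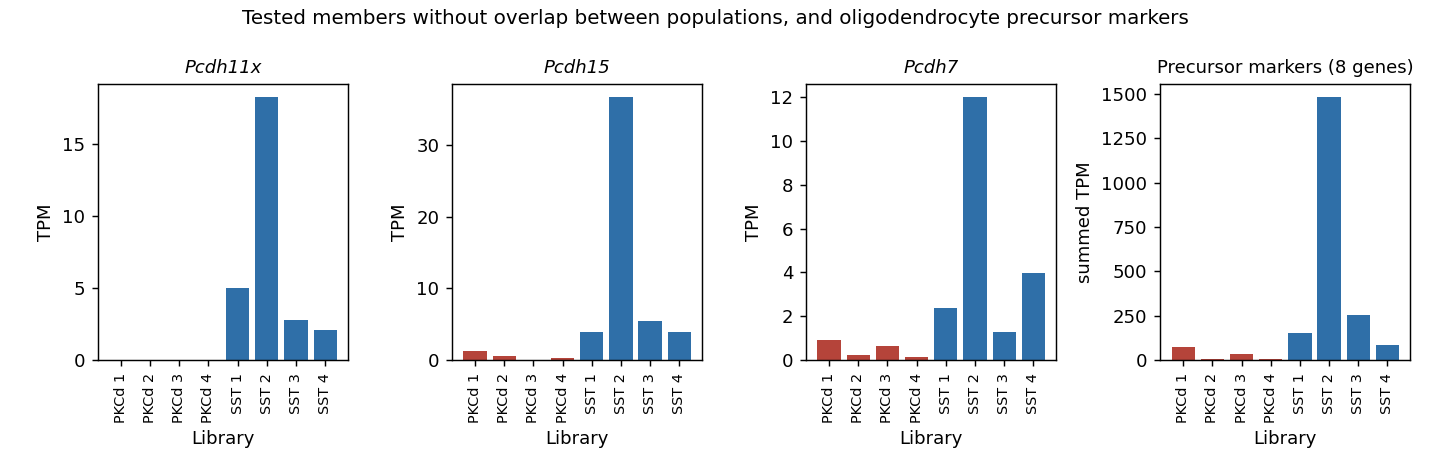
TPM of Pcdh11x, Pcdh15 and Pcdh7 and the summed TPM of 8 oligodendrocyte precursor markers in each library, on linear axes that start at 0 and differ between panels. In each panel all SST bars are above all PKCd bars and SST replicate 2 is the highest.

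RefSeq start-site windows (GRCm38.p6, from 250 bases before to 50 bases after a transcript start) were on hand for 9 of the 23 tested members. They are shown for Pcdh15 and Pcdh7, which separated the populations, and for Pcdh17, the member with such a window and a population difference of opposite sign that had reads in all libraries. Capitals mark the E-box CANNTG, the hexamer bound by basic helix-loop-helix factors, which reads the same on both strands. The Pcdh15 window (chr10:73821617-73821916, plus strand) and the Pcdh7 window (chr5:57717831-57718130, plus strand) both lie inside the span of their gene, and the Pcdh17 window is chr14:84443313-84443612 (plus strand).
Pcdh15: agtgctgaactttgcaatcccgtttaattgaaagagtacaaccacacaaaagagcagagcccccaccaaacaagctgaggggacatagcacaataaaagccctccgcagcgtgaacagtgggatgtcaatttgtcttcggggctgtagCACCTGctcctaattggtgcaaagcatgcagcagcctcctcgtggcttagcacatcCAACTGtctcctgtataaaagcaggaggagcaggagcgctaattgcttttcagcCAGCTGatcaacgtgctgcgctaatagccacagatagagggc
Pcdh7: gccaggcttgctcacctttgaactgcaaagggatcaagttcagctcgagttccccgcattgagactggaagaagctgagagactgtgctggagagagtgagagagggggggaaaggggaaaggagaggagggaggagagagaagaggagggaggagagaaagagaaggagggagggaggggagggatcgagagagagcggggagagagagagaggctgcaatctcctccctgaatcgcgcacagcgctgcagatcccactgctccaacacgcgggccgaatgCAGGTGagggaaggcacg
Pcdh17: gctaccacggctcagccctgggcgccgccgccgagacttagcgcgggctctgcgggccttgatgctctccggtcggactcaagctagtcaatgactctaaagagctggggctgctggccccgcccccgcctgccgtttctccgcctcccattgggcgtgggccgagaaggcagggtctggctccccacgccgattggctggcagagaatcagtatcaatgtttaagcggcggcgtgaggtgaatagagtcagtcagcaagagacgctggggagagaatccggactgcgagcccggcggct

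The Pcdh15 window held 3 E-boxes, the Pcdh7 window 1 and the Pcdh17 window 0, while 72.3% of all 32851 windows of this length held at least 1. CG dinucleotides numbered 8, 11 and 26, against a median of 7 over all windows. The TATA sequence TATAAA, read on either strand, was in the Pcdh15 window and not in the other two, and 13.6% of all windows held it. These are matches of letters only, and no binding was measured.

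None of the 5 tested classical cadherins was called in edgeR, and all 5 overlapped between the populations. Cdh2 (chromosome 18, 16588877 to 16809246), N-cadherin, the main cadherin of synapses and glia, held 17.5, 6.30, 45.1 and 23.0 TPM in PKCd replicates 1 to 4 and 30.1, 128.8, 37.8 and 56.6 TPM in SST replicates 1 to 4. PKCd replicate 3 lay within the SST range, and SST replicate 2 was highest. In edgeR the population difference was -1.53 ± 0.71 on the log2 scale (SE; adjusted p 0.765). Cdh4, R-cadherin, was under 3 TPM in 7 libraries and 15.7 TPM in SST replicate 3. Among type II cadherins, Cdh11, known from mesenchymal cells, held 7.30 to 56.8 TPM in PKCd and 31.7 to 65.5 TPM in SST libraries, and Cdh10 held 1.18 to 15.1 and 1.32 to 24.04 TPM. Their log2 fold changes were -0.87 ± 0.65 and -0.85 ± 1.39 (SE), with edgeR adjusted p-values of 0.881 and 0.959. Mural cell markers, which include the contractile gene Acta2, summed to 102.5 to 3764 TPM in PKCd and 2145 to 10756 TPM in SST libraries. In PKCd libraries replicate 2 was lowest and replicate 3 highest for this sum, Cdh2 and Cdh11 alike. SST replicate 2, with the highest Cdh2 and Cdh11, had the lowest mural sum of the SST libraries. Astrocyte markers summed to 346.1 to 3914 TPM in PKCd and 2687 to 6943 TPM in SST libraries. In PKCd libraries the astrocyte sum, too, was lowest in replicate 2 and highest in replicate 3. In SST libraries it was lowest in replicate 1, as Cdh2 and Cdh11 were, but highest in replicate 3, as they were not. The part of mural cells and astrocytes in the levels of Cdh2 and Cdh11 was not tested.

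Cdh5 (chromosome 8, 104101613 to 104144504), VE-cadherin, the cadherin of endothelial junctions, held 0.815, 27.3, 1.37 and 8.97 TPM in PKCd replicates 1 to 4. SST replicates 1 to 4 held 0, 0, 0.558 and 2.48 TPM, so PKCd replicates 2 and 4 stood above all SST libraries and the other PKCd libraries lay among them. Its log2 fold change of 5.83 ± 3.35 (SE) did not pass in edgeR (adjusted p 0.844) and did in DESeq2 (adjusted p 0.029). The 10 endothelial markers summed to 315.1, 2929, 1686 and 5044 TPM in the same PKCd libraries and 472.3, 145.9, 1536 and 4490 TPM in the SST libraries. None of these markers was called, and Cldn5, a tight junction protein, ran from 47.8 to 1161 TPM in PKCd and from 0.0896 to 555.9 TPM in SST libraries. The part of endothelial RNA in the Cdh5 values was not tested.

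Cdh13, T-cadherin, which is held in the membrane by a lipid anchor, was present in some libraries of each population and absent from others. It held 0.279, 11.3, 0 and 8.91 TPM in PKCd and 5.36, 40.7, 0 and 31.2 TPM in SST replicates 1 to 4 (log2 fold change -1.78 ± 1.90 SE, edgeR adjusted p 0.933). Cdh23, the partner of Pcdh15 in the tip link, had the opposite sign to Pcdh15. It held 1.06, 0.778, 0 and 4.33 TPM in PKCd and 0, 0, 0.485 and 0.115 TPM in SST libraries (log2 fold change 5.38 ± 2.43 SE, edgeR adjusted p 0.736). Its SST values rest on 7 reads in all, and PKCd replicate 3 at 0 lay below 2 SST libraries.

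The other delta-1 genes overlapped. Pcdh9, which with Cdh2, Cdh11 and Pcdh18 had the highest means of the 16 tested cadherins and non-clustered protocadherins, held 40.7, 2.38, 18.1 and 51.6 TPM in PKCd and 24.6, 127.6, 19.5 and 40.2 TPM in SST replicates 1 to 4. Its log2 fold change was -0.71 ± 0.88 (SE; edgeR adjusted p 0.95). A target of 6129 bases took 96.8% to 100% of Pcdh9 reads in the 4 PKCd libraries, and 39.2%, 96.9%, 43.1% and 87.2% in SST replicates 1 to 4. The share of this target thus lay below the PKCd range in SST replicates 1, 3 and 4, and within it in SST replicate 2. Pcdh9 had 102 reads in SST replicate 3 and 62 in PKCd replicate 3. Reads were divided between the targets by the authors' tool, so these shares are uncertain. Pcdh1 held 0 to 12.6 TPM in PKCd and 0.847 to 14.3 TPM in SST libraries.

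Of the 4 tested delta-2 protocadherins, several of which bind the actin-regulating WAVE complex, none was called in edgeR; Pcdh10, Pcdh18 (-1.05 ± 1.43 SE) and Pcdh19 had log2 fold changes below 0 and Pcdh17 above. Pcdh10, a gene studied in autism, held 10.3, 5.10, 0 and 0.136 TPM in PKCd and 6.82, 27.3, 18.4 and 5.51 TPM in SST replicates 1 to 4. The 18 week PKCd libraries held 1 Pcdh10 read between them, while the 20 week SST libraries held 126 and 70. Its log2 fold change was -3.51 ± 1.65 (SE; edgeR adjusted p 0.769). Pcdh17, a presynaptic protocadherin of circuits between cortex and basal ganglia, held 7.15, 17.3, 3.35 and 7.07 TPM in PKCd and 2.04, 6.91, 4.91 and 2.77 TPM in SST libraries, a log2 fold change of 1.08 ± 0.90 (SE; edgeR adjusted p 0.904). Pcdh19, whose loss causes an X-linked epilepsy in people, held 0.348 to 6.64 TPM in PKCd and 3.23 to 13.2 TPM in SST libraries (-1.45 ± 1.41 SE; 0.927). Pcdh8, which did not pass the filter, ran from 0 to 4.83 TPM in PKCd and from 0 to 1.43 TPM in SST libraries.

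**Figure D3:**
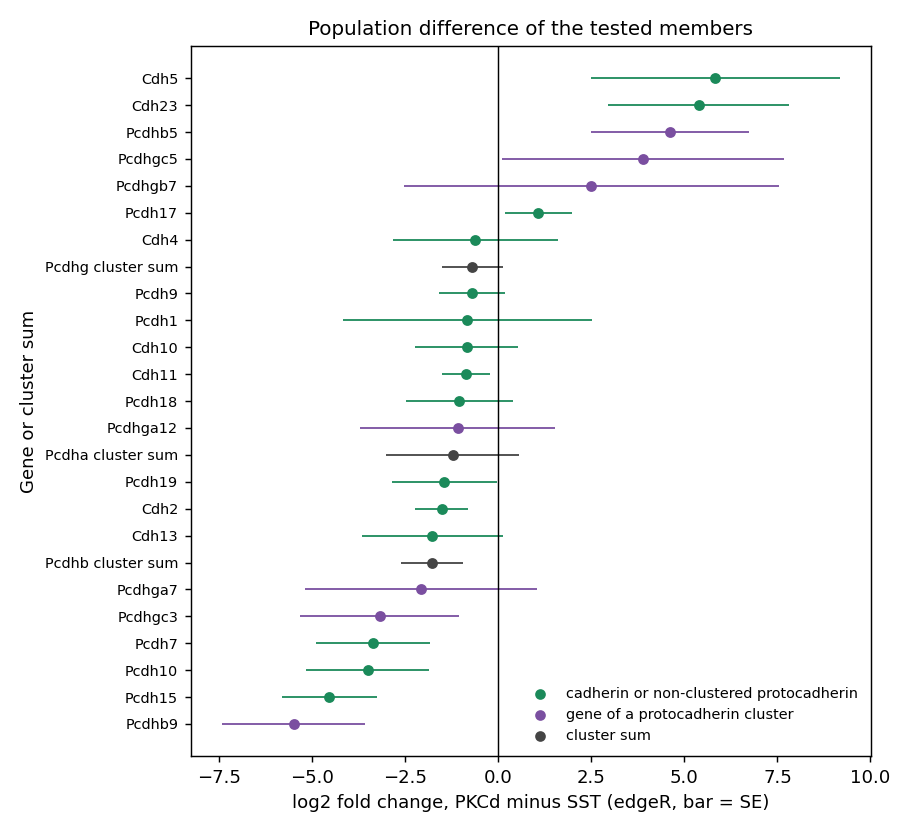
Log2 fold change (PKCd minus SST, edgeR) with its standard error for 22 tested members and the 3 cluster sums; Pcdh11x is left out because it had no read in PKCd libraries. Values run from -5.51 for Pcdhb9 to 5.83 for Cdh5, and none passed the threshold.

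Clustered protocadherins were compared as sums, since reads from shared or similar exons cannot be assigned to 1 gene with certainty. In a table where each cluster was 1 row (11324 rows tested, of which 0.283% were called higher and 0.0% lower), none of the 3 sums was called, nor was any in DESeq2, which called 3.2% higher and 0.804% lower. The Pcdha sum was 0, 12.4, 1.03 and 1.73 TPM in PKCd replicates 1 to 4 and 6.77, 8.50, 12.3 and 2.16 TPM in SST replicates 1 to 4 (3.79 ± 5.79 against 7.44 ± 4.22 TPM, SD, n = 4 each). PKCd replicate 1, the deepest library, had 0 Pcdha reads. The Pcdhb sum was 11.4, 2.12, 52.1 and 14.8 TPM in PKCd and 8.50, 77.5, 81.3 and 68.9 TPM in SST libraries (20.1 ± 22.0 against 59.1 ± 34.1 TPM). 3 SST libraries stood above every PKCd library, and SST replicate 1 was lower than 3 of the PKCd libraries. The Pcdhg sum was 88.1, 10.7, 81.8 and 61.6 TPM in PKCd and 11.6, 207.3, 182.7 and 31.7 TPM in SST libraries, spread as widely within a population as between them. Log2 fold changes were -1.23 ± 1.79, -1.79 ± 0.84 and -0.70 ± 0.82 (SE), with edgeR adjusted p-values of 0.955, 0.766 and 0.945. Single libraries moved these values. The Pcdha sum was -3.84 without PKCd replicate 2 and -0.45 without SST replicate 3, and the Pcdhb sum was -0.98 without SST replicate 2. The Pcdhg sum was -1.34 and -0.31 without PKCd replicates 1 and 2, 0.32 and -0.20 without SST replicates 2 and 3.

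Within each cluster the leading gene differed between libraries. Few genes took most of the signal in the Pcdha cluster, whereas in some libraries the Pcdhb and Pcdhg signal was more spread. In PKCd replicate 1 the leading gene took 26.4% of the Pcdhb sum and 29.0% of the Pcdhg sum. In the Pcdha cluster 0 to 4 of 14 genes had a read in a library, and the leading gene took 50.2% to 100% of the sum. Some of these shares rest on few reads: the whole cluster had 3 in PKCd replicate 3, 8 in PKCd replicate 4 and 18 in SST replicate 4. Pcdha5 led in PKCd replicate 2 (80.0%) and SST replicate 1 (97.3%), Pcdha9 in SST replicate 2 (100%) and Pcdha8 in SST replicate 3 (91.6%). Pcdha5 had 369 and 371 reads in the libraries it led and 0 in the other 6. The C-type gene Pcdhac2, which lies next to the constant exons, led in SST replicate 4 with 50.2%.

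In the Pcdhb cluster 3 to 16 of 22 genes had a read, and the leading gene took 26.4% to 87.7%. Pcdhb9 led in SST replicates 2, 3 and 4 (74.8%, 44.98% and 42.3%). It held 2.34, 0, 0 and 0.384 TPM in PKCd and 0.996, 58.0, 36.6 and 29.2 TPM in SST replicates 1 to 4, and only SST replicate 1 lay within the PKCd range. Its log2 fold change of -5.51 ± 1.93 (SE) did not pass in edgeR (adjusted p 0.477) and did in DESeq2 (adjusted p 0.0126). Pcdhb5 was 32.5 TPM in PKCd replicate 3, on 63 reads, and 0 to 2.81 TPM elsewhere. Pcdhb7 was 19.2 and 13.6 TPM in SST replicates 3 and 4 and at most 1.08 TPM in the other 6 libraries.

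In the Pcdhg cluster 2 to 17 of 22 genes had a read. Pcdhgc3, a C-type gene, led in PKCd replicate 1 and SST replicates 2 and 3 (29.0%, 38.3% and 25.7%), and had 0 reads in PKCd replicates 2 and 3. Pcdhgb7 led in PKCd replicate 3 and SST replicate 1 (45.8% and 84.9%) and Pcdhgb4 in PKCd replicates 2 and 4 (68.8% and 46.1%). Of the tested Pcdhg genes, Pcdhgc3, Pcdhga7 and Pcdhga12 had log2 fold changes of -3.20 ± 2.13, -2.09 ± 3.12 and -1.10 ± 2.63, and Pcdhgb7 and Pcdhgc5 of 2.50 ± 5.04 and 3.88 ± 3.78 (SE). Each SE is large beside its value, and the edgeR adjusted p-values were 0.867 to 0.976.

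**Figure D4:**
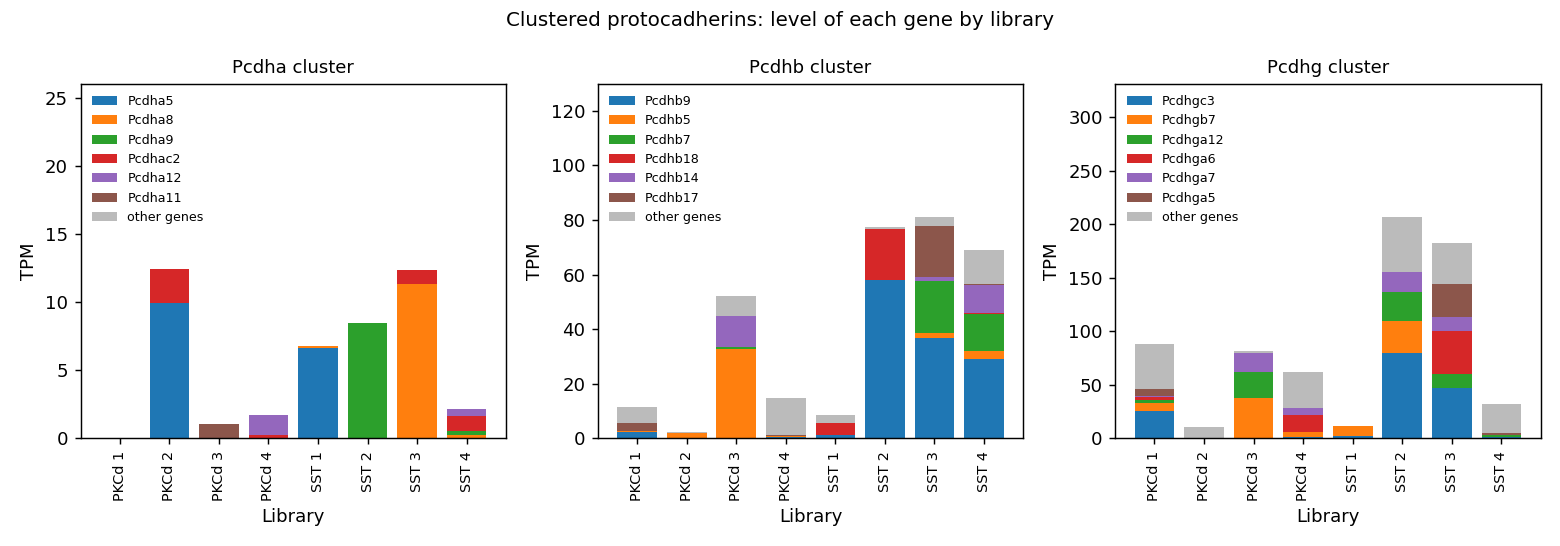
TPM of the Pcdha, Pcdhb and Pcdhg clusters in each library, stacked by gene with the 6 genes of highest mean in colour and the others in grey; axes are linear and differ between panels. The colours change from library to library, and Pcdhb9 is the lowest block of the bars of SST replicates 2 to 4.

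Outside the clusters, 4 members that did not pass the filter exceeded 5 TPM in 1 to 3 libraries, a limit picked after their values were seen. They had 425 to 994 reads in all, more than the tested Cdh23 (251), but in too few libraries to pass. Cdh19 held 10.3, 0, 6.06 and 23.0 TPM in PKCd replicates 1 to 4 and at most 0.370 TPM in any SST library. Cdh22 was 35.2 TPM in PKCd replicate 2 and at most 2.50 TPM in the others. Pcdh20 was 6.75 and 19.4 TPM in SST replicates 2 and 4 and at 0 in the other 6 libraries. Cdh6 was 7.21 TPM in PKCd replicate 4, 12.5 and 9.05 TPM in SST replicates 1 and 2, and under 1 TPM elsewhere.

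The age term of the same model compared the older with the younger class. No member was called among the 23 tested, where 0.0265% of all genes were called higher and 0.0265% lower, and 1 member had an unadjusted p under 0.05 (8.35% of all genes). That member, Pcdhb5, had a log2 fold change of 5.53 ± 2.19 (SE; edgeR adjusted p 0.528), with its highest level in PKCd replicate 3. DESeq2 called it, as it called 2.21% of all genes higher and 2.69% lower in the older class. Of the 23, 12 had an age difference below 0, against 54.8% of all genes. Pcdh18, a delta-2 protocadherin, was the tested member whose age classes did not overlap, as 4.15% of all genes were higher without overlap and 3.53% lower. It held 8.63 and 0 TPM in PKCd replicates 1 and 2, 25.7 and 0.439 TPM in SST replicates 1 and 2, 102.0 and 29.3 TPM in PKCd replicates 3 and 4 and 106.8 and 45.4 TPM in SST replicates 3 and 4. Its log2 fold change was 2.85 ± 1.49 (older minus younger, SE; edgeR adjusted p 0.645), and between populations it was -1.05 ± 1.43. With no filter on low reads edgeR called it, where 0.689% of all genes were called higher and 0.79% lower. The interaction of age class with population called 0 of the 23 members and 0.0% of all genes. 4 of the 23 members had an unadjusted p under 0.05 there, against 4.12% of all genes, and the smallest edgeR adjusted p among members was 0.9997.

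Lists of other genes of cadherin adhesion were set beside the members: catenins, other cadherin relatives, proteases that cleave cadherins, regulators of the clustered locus, intracellular partners and partners of the tip link. Of 100 listed genes 98 were measured and 66 tested, and 0 were called in edgeR in either direction. Of 11 tested catenins and partners 7 had positive and 4 negative log2 fold changes. Ctnnb1, beta-catenin, which binds the tails of classical cadherins, held 103.7 to 485.9 TPM in PKCd and 43.4 to 109.7 TPM in SST libraries (1.41 ± 0.46 SE, edgeR adjusted p 0.427). Of 6 tested cadherin relatives 5 were negative, and Fat1, a giant cadherin, held 0 to 0.902 TPM in PKCd and 0.565 to 5.66 TPM in SST libraries. Of the 10 proteases and cofactors 6 were positive, and Adam10, the main sheddase of N-cadherin, held 24.3 to 169.3 TPM in PKCd and 14.9 to 58.3 TPM in SST libraries (1.29 ± 0.49 SE, adjusted p 0.567 in edgeR).

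The 17 tested regulators of the clustered locus, among them the looping factors Ctcf and cohesin, included 12 positive and 5 negative values, and Smc3, a cohesin subunit, had -0.89 ± 0.54 (SE). Of 18 intracellular partners 11 were positive. Ptk2b, a kinase relative of focal adhesion kinase, and Wasf2, a WAVE protein, did not overlap, with every PKCd library above every SST library, and so it was with the sheddase Adam17. These 3 were picked for that, and 3.88% of all genes did the same. Ptk2b held 30.8 to 66.6 TPM against 0.0595 to 7.42 TPM (3.78 ± 1.23 SE, edgeR adjusted p 0.427). Microglia also express these genes, and microglial markers were 4 of 12 called higher in PKCd libraries with all 12 separated. Their part in these values was not tested. Of the 11 tip-link partners 4 could be tested, and Cib2 held 0 to 49.0 TPM in PKCd and 32.5 to 88.7 TPM in SST libraries (-1.06 ± 1.67 SE).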

How the data were processed

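Per the file headers, the deposited tables give each RefSeq target its length, estimated counts and TPM. Tools named by the submitters' processing notes are BWA 0.7.12 and kallisto 0.43.0, and the build is mm10, with no role given for BWA. The authors' TPM values are scaled to target length and library total and so keep no depth. Of 30404 targets, 30080 were named from RefSeq (GRCm38.p6), 147 from GENCODE, and 177 kept their accession. The authors' estimated counts were added up over the targets of a gene, then rounded. edgeR 4.0.16 in R 4.3.3 (TMM, default filter by population, terms for age class and population) gave the tests, with Benjamini-Hochberg adjustment over all genes and a threshold of 0.05; the SE is from the F statistic. Totals per library are in the text, and a count of 0 allows up to 3 counts (counting error only; amplified reads are not independent molecules). Each library is 1 mouse, so the spread behind a p-value includes mice, sorting and amplification. Alternatives were RLE and upper quartile scaling, no filter, 10 CPM in 4 libraries, DESeq2 1.42.0, limma 3.58.1 (voom, log2(TPM + 1), log2(TPM + 0.1)), no age term, a replicate block, the age classes taken singly, and leaving out libraries 1 at a time. The members' rule uses symbols alone, but this gene family and the lists were chosen with earlier results of these data known. Members were named when tested, when the populations did not overlap at a mean of at least 1 TPM, or as a cluster's top 3; list genes by adjusted p, then mean TPM, up to 4 each.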

Additional observations from a re-analysis of the deposited data

Results flagged for a closer look

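In 15 of 57 groups of 4 libraries, a library lay apart from the other 3 by more than Dixon's 95% limit. That limit passes about 1 group in 20 of normally distributed values; many of these groups hold values at or near 0, where the rate does not apply, so the number is a description only. In SST libraries these were Cdh4 in replicate 3 (15.7 TPM, others 0 to 0.796), Pcdh1 in replicate 1 (14.3, others 0.847 to 2.38), Pcdh15 in replicate 2 (36.7, others 3.87 to 5.46) and the Pcdhb sum in replicate 1, which was low (8.50, others 68.9 to 81.3). Genes of the Pcdha cluster were Pcdha5 in SST replicate 1 (6.59) and in PKCd replicate 2 (9.93), Pcdha8 in SST replicate 3 (11.3) and Pcdha9 in SST replicate 2 (8.50). The Pcdha sum stood apart in PKCd replicate 2 (12.4 TPM). In PKCd replicate 3 they were Pcdhb5 (32.5 TPM), Pcdhga12 (24.5) and Pcdhb7 (1.08). In PKCd replicate 1 they were Pcdhgc3 (25.6 TPM), Pcdhgc5 (6.28) and Pcdhb9 (2.34). Of the 15, 10 are genes of the clusters and 2 are cluster sums.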

How the results depend on the processing

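In the population comparison, 0 members were called higher or lower in any alternative but DESeq2 (1 higher, 3 lower) and no filter (0 higher, 1 lower). For age class, DESeq2 and no filter each called 1 member higher: Pcdhb5 (log2 fold change 6.08) and Pcdh18 (2.82). Among genes of the adhesion lists, no filter called 1 higher (Ptk2b) and DESeq2 called 2 (Ptk2b and Wasf2). Of the 23 tested members 15 kept their sign in every alternative that gave a value (13 to 20 each). Leaving out 1 library turned the sign of Cdh4 (-1.38 to 1.42), Pcdh1 (-2.83 to 1.26), Pcdh9 (-1.24 to 0.0068), Pcdh18 (-1.71 to 1.03), Pcdhga7 (-3.71 to 1.98), Pcdhga12 (-4.13 to 2.36), Pcdhgb7 (-0.81 to 6.75) and the Pcdhg sum (-1.34 to 0.32). Signs also turned with limma-voom (Cdh4 0.99, Pcdhga7 0.075, Pcdhgb7 -1.78), in 8 to 9 week libraries alone (Cdh4 1.01, Pcdh19 0.37, Pcdhgb7 -2.33) and in 18 to 20 week libraries alone (Pcdh1 2.73, Pcdh9 0.26, Pcdhga7 0.89, Pcdhga12 0.86). The cause was not tested.

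Whether replicate numbers pair the mice cannot be told from these values. Deviations from the population mean correlated at 0.0615 to 0.174 between libraries of the same number, and 4 of 8 libraries correlated best with their own number. Such deviations still carry age class, which runs with the replicate number. With age class removed, the correlations mirror each other by construction. With the replicate number as a block 0 members were called, and Cdh4 (0.37) and Pcdhga7 (1.56) changed sign. RLE scaling moved the median age difference of all genes from -0.16 to -0.06. Shallow libraries limit low genes: 0 reads allow up to 3.11 CPM in the shallowest.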
